A study of Homo sapiens with 6 samples.

Results

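The genes for the stress transcription factors ATF4 and CHOP (DDIT3), for the mTORC1 inhibitor REDD1 (DDIT4), and for VLDLR, AARS1, SLC7A5 and SLC7A11 were examined in Huh7, a line established from a human liver cancer (hepatocellular carcinoma). These 7 genes belong to the integrated stress response and were picked by name, with the GABA against control values of the same libraries already known. They are 7 of the 5187 genes listed in the count files, and all 7 passed the filter on low counts. Total RNA was sequenced in 3 libraries of cells treated with GABA, the neurotransmitter gamma-aminobutyric acid, over 24 h, and in 3 libraries of control cells that received none. Both groups are the same single line grown in DMEM with fetal bovine serum, and the labels do not state the dose of GABA. The labels call the libraries biological replicates without saying what was repeated, so p-values measure the spread between these libraries, which may be technical. The title of the series concerns gene regulation by GABA in the spread of liver cancer.

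In the integrated stress response, kinases that sense amino acid shortage, ER stress, double-stranded RNA or heme shortage phosphorylate the translation factor eIF2. Bulk protein synthesis then slows, while the ATF4 messenger is translated more, so the amount of ATF4 protein can change with little change in its transcript. ATF4, often as a dimer with other bZIP proteins such as CHOP or C/EBP factors, switches on genes for amino acid import, amino acid synthesis, tRNA charging and the control of mTORC1.

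The files list genes that differ in this same comparison. Among the 4981 genes tested with edgeR, 98.7% passed an adjusted p of 0.05, with 47.6% higher and 51.2% lower in GABA-treated cells, and the smallest absolute log2 fold change was 0.12. Counts of changed genes are therefore read against these shares, and all levels are CPM, that is TMM-scaled counts relative to the library's total over the tested genes. The libraries held 7719243 to 8392945 counts on listed genes with GABA and 7702666 to 8235028 in controls. Control replicate 3 stood apart from the other controls: mitochondrially encoded transcripts took 9.11% of its counts, against 6.66% to 7.04% in the GABA libraries and 7.14% and 7.74% in the other controls. None of 12 hepatocyte markers, ALB and AFP among them, is listed, so the identity of the line could not be checked. Of 17 markers of fibroblasts, other epithelia, blood and endothelium, 3 fibroblast markers were tested, with a summed mean level of 141 CPM with GABA and 131 CPM in controls. COL3A1 and THY1 rose (log2 fold changes 0.66 and 0.33) and PDGFRB fell (-0.99), and their part in the results was not tested.

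Of the 7 genes, 6 were lower in GABA-treated cells and 1, AARS1, was higher. In all 7 the GABA and control libraries did not overlap, which was also so for 92.5% of all tested genes, and 46.7% of all were without overlap and lower. Since the files were preselected, nothing is read from these counts. Because this contrast also chose the genes, their fold changes are descriptions and carry no test. The size of the difference varied widely among them, with GABA over control ratios of mean CPM of 0.437 for DDIT4, 0.564 for DDIT3, 0.604 for VLDLR, 0.768 for SLC7A5, 0.837 for SLC7A11, 0.900 for ATF4 and 1.43 for AARS1. A lower level per cell and fewer cells carrying the transcript cannot be told apart in these bulk libraries.

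**Figure D1:**
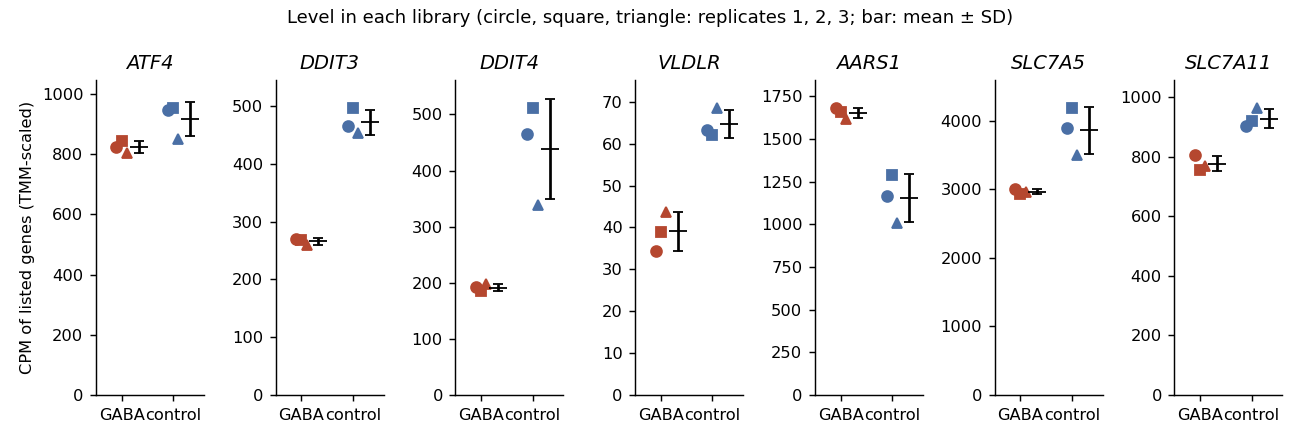
CPM of each gene in each library (y axis, linear from 0; red, GABA; blue, control; symbols, replicates 1 to 3) with the mean and SD of 3 libraries as a black bar. DDIT3 and DDIT4 sit far apart between the groups, with GABA means of 266 and 191 CPM against 472 and 438 CPM in controls, while the ATF4 groups nearly touch.

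ATF4 (ENSG00000128272, chr22:39519695-39522685 on the plus strand, GRCh38) encodes the transcription factor on which the response converges. Its level was 825, 845 and 804 CPM in GABA replicates 1, 2 and 3, and 946, 953 and 851 CPM in control replicates 1, 2 and 3. The highest GABA library lay 6.27 CPM below the lowest control, control replicate 3. The log2 fold change was -0.15 ± 0.06 (SE, n = 3 each), and -0.21 ± 0.05 without control replicate 3. This is a small difference for these files, whose tested genes had a median absolute log2 fold change of 0.40. The median of their signed log2 fold changes was -0.18 in the main fit and -0.12 without control replicate 3. Whether ATF4 fell more than this median therefore depended on that library. As nearly all tested genes were called higher or lower, the median does not describe a typical gene. In order from the lowest ATF4 held place 2572 of all 4981. None of the ATF4 exons overlaps another annotated gene.

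DDIT3 (ENSG00000175197, chr12:57516588-57521737, minus strand) encodes CHOP, a bZIP factor that ATF4 induces and that is known for driving cell death under lasting ER stress. It had 271, 268 and 260 CPM in the GABA libraries and 466, 496 and 454 CPM in the controls. The GABA libraries were closely grouped, and 183 CPM separated the groups. The log2 fold change was -0.83 ± 0.06, and -0.86 ± 0.05 without control replicate 3. In order from the lowest it held place 33 of the 3070 tested genes averaging 50 CPM or more, and place 357 of all 4981. Set against the ATF4 transcript of the same library, DDIT3 counts were 0.323 ± 0.005 of ATF4 counts with GABA and 0.516 ± 0.02 in controls (SD, n = 3).

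Where DDIT3 exons overlap other genes, it cannot be told here which gene the counted reads came from. Of the DDIT3 exon length 39.6% overlaps other annotated genes, 8.03% of it on the same strand. MARS1, the methionyl-tRNA synthetase on the opposite strand, covers 27.2% of the DDIT3 exons and is absent from the listed genes. MBD6, a methyl-CpG-binding domain gene on the opposite strand, covers 4.44% and rose (395 ± 10.2 CPM with GABA, 280 ± 54.1 CPM in controls, log2 fold change 0.49 ± 0.11, adjusted p = 0.0024). The sources used here do not say whether counting used the strand.

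DDIT4 (ENSG00000168209, chr10:72273920-72276036, plus strand) encodes REDD1, which restrains mTORC1 through the TSC complex and is induced by ATF4, hypoxia, glucocorticoids and p53. It had 192, 185 and 197 CPM in the GABA libraries and 464, 511 and 339 CPM in the controls. The 3 GABA libraries agreed within a coefficient of variation of 3.10%, whereas the controls had 20.3% and control replicate 3 was the lowest of them. The log2 fold change was -1.20 ± 0.12, place 5 from the lowest of the 3070 genes, and -1.35 ± 0.05 without control replicate 3. Among all 4981 tested genes DDIT4 held place 147 from the lowest. An antisense transcript, DDIT4-AS1, covers 41.2% of the DDIT4 exons and is absent from the listed genes.

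VLDLR (ENSG00000147852, chr9:2621834-2660053, plus strand) encodes the very low density lipoprotein receptor, which takes up lipoproteins and is induced by ATF4 and by hypoxia. It had 34.4, 38.9 and 43.8 CPM in the GABA libraries and 63.2, 62.2 and 68.4 CPM in the controls. VLDLR had the lowest level of the 7, and its GABA libraries were the more scattered group, with coefficients of variation of 12.0% with GABA and 5.18% in controls. The log2 fold change was -0.73 ± 0.11, and -0.68 ± 0.10 without control replicate 3.

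SLC7A5 and SLC7A11 encode the light chains of a pair of amino acid exchangers that share the heavy chain SLC3A2. SLC7A5 (ENSG00000103257, chr16:87830023-87869488, minus strand), or LAT1, imports leucine and other large neutral amino acids, and it had 3001, 2928 and 2963 CPM in the GABA libraries and 3887, 4179 and 3504 CPM in the controls. The log2 fold change of SLC7A5 was -0.38 ± 0.07, and -0.45 ± 0.05 without control replicate 3. SLC7A11 (ENSG00000151012, chr4:138164097-138242349, minus strand), or xCT, imports cystine for glutathione synthesis and is a target of NRF2 as well as ATF4. It had 806, 756 and 767 CPM in the GABA libraries and 901, 919 and 962 CPM in the controls, a log2 fold change of -0.26 ± 0.06, and -0.23 ± 0.05 without control replicate 3. Unlike SLC7A5, SLC7A11 was highest in control replicate 3. SLC3A2 fell less (1687 ± 64.0 CPM with GABA, 1904 ± 146 CPM in controls, log2 fold change -0.18 ± 0.07, adjusted p = 0.026). The count ratio of SLC7A5 to SLC3A2 was 1.76 ± 0.07 with GABA and 2.02 ± 0.04 in controls, without overlap. SLC7A5 was chosen with this contrast known, so nothing is read from that separation. The ratio of SLC7A11 to SLC3A2 was 0.460 ± 0.02 with GABA and 0.489 ± 0.05 in controls, with overlap. Near-copies of SLC7A5 and ATF4 in the genome, such as SLC7A5P1, SLC7A5P2 and ATF4P3, are not listed, and how reads shared with them were counted is not given in the sources used here.

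AARS1 (ENSG00000090861, chr16:70252295-70289543, minus strand), the cytosolic alanyl-tRNA synthetase, was the exception. It had 1680, 1657 and 1618 CPM in the GABA libraries and 1167, 1286 and 1006 CPM in the controls. All GABA libraries lay at least 332 CPM above the highest control, and the controls were the more scattered group. The log2 fold change was 0.52 ± 0.08, and 0.43 ± 0.05 without control replicate 3. No exon of AARS1 overlaps another annotated gene. EXOSC6, a subunit of the RNA exosome separated from AARS1 by 364 bases on the same strand, fell (151 ± 2.90 CPM with GABA, 237 ± 18.6 CPM in controls, log2 fold change -0.65 ± 0.07, adjusted p = 3.2e-05).

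Divided by exon length, SLC7A5 was the most abundant of the 7 transcripts in both groups, at 625 ± 7.71 CPM per kb with GABA and 813 ± 71.3 CPM per kb in controls. With GABA the order below it was AARS1 (367 ± 6.89), ATF4 (328 ± 8.07), DDIT3 (204 ± 4.43), DDIT4 (92.9 ± 2.88), SLC7A11 (80.5 ± 2.73) and VLDLR (4.18 ± 0.50), all in CPM per kb, and no neighbours in that order overlapped between libraries. In controls ATF4 (365 ± 22.6) and DDIT3 (361 ± 16.7) followed SLC7A5 and could not be told apart, and AARS1 (256 ± 31.3) came after them, overlapping DDIT4 (213 ± 43.2). SLC7A11 (96.1 ± 3.22) and VLDLR (6.92 ± 0.36) were again the lowest. The level of AARS1 was thus above those of ATF4 and DDIT3 in GABA-treated cells and below both in controls. Exon lengths are the union of all annotated exons, and an expressed isoform may be shorter.

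**Figure D2:**
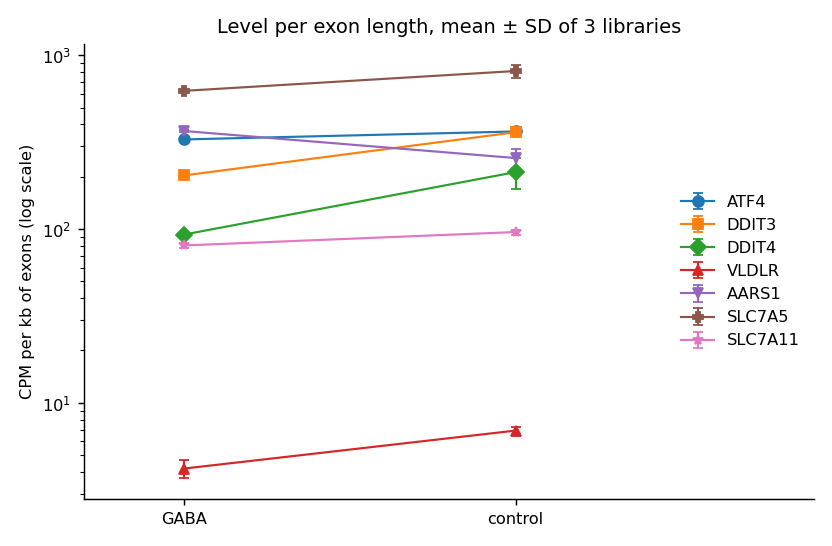
Mean CPM per kb of annotated exons (y axis, log scale) for the 7 genes in GABA-treated and control cells, with the SD of 3 libraries as error bars. The AARS1 line crosses those of ATF4 and DDIT3, at 367 CPM per kb with GABA and 256 CPM per kb in controls.

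The 7 genes deviated in different directions within a group. In control replicate 3, ATF4, DDIT3, DDIT4, AARS1 and SLC7A5 were the lowest of the controls, while VLDLR and SLC7A11 were the highest. The largest deviation of any library from its group mean was -0.35 log2 units, for DDIT4 in control replicate 3. In control replicate 2 the same gene lay 0.24 log2 units above the mean. Among the GABA libraries the largest deviations were those of VLDLR, -0.17 in replicate 1 and 0.17 in replicate 3, and the next was 0.05, for SLC7A11 in replicate 1. The higher mitochondrial share of control replicate 3 moved with these deviations, and its part in them was not tested.

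**Figure D3:**
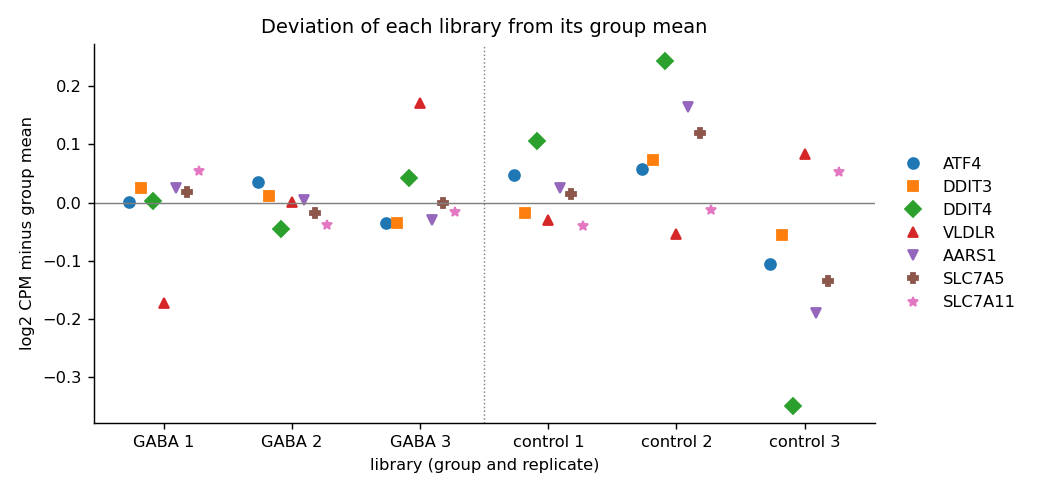
Difference between each library's log2 CPM and the mean of its group (y axis) for the 7 genes, by library (x axis). DDIT4 spreads from -0.35 to 0.24 log2 units over the controls, and the GABA libraries lie close to 0 except for VLDLR.

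The genes whose pattern over the 6 libraries was nearest to a member were found by the root mean square difference of log2 CPM, each gene centred on its own mean, among the 3070 genes averaging 50 CPM or more. A near gene must therefore have a similar fold change in the contrast that chose the members, and nearness is not a measure of joint regulation. Nearest to DDIT3 were LUCAT1, a long noncoding RNA (difference 0.033 log2 units, with means of 71.9 CPM with GABA and 130 CPM in controls), SQSTM1 (0.042) and HKDC1 (0.052), a hexokinase gene. Nearest to DDIT4 were BEX2 (0.052), OSGIN1 (0.058) and MKNK2 (0.077). Nearest to AARS1 were FDXR (0.023), the ferredoxin reductase, CNOT3 (0.028), of the CCR4-NOT deadenylase complex, and PTGES2 (0.029), a prostaglandin E synthase.

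Of the genes acting on eIF2, 7 of 20 were tested, with 3 higher and 4 lower. EIF2AK2, the kinase PKR, was the only eIF2 kinase tested and fell (227 ± 9.98 CPM with GABA, 303 ± 12.0 CPM in controls, log2 fold change -0.41 ± 0.07, adjusted p = 3.2e-04). EIF2S2 and EIF2S3, the beta and gamma subunits of eIF2, also fell, by 0.36 and 0.18 on the log2 scale, as did DELE1, which relays mitochondrial stress to the kinase HRI, by 0.26. GCN1, the ribosome-bound activator of the amino acid sensor GCN2, rose (528 ± 15.3 CPM with GABA, 411 ± 33.3 CPM in controls, log2 fold change 0.36 ± 0.07, adjusted p = 0.0010). EIF2B2 and EIF2B3, subunits of the exchange factor eIF2B, rose by 0.32 and 0.25. The kinases PERK (EIF2AK3), GCN2 (EIF2AK4) and HRI (EIF2AK1) are not listed.

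Of the bZIP partners and Tribbles pseudokinases, 11 of 19 were tested, with 2 higher and 9 lower and a median log2 fold change of -0.39, against -0.18 over all tested genes. ATF3, a stress-induced repressor and ATF4 target, fell (194 ± 28.0 CPM with GABA, 271 ± 36.5 CPM in controls, log2 fold change -0.49 ± 0.11, adjusted p = 0.0028). CEBPG, a dimer partner of ATF4, fell by 0.39, ATF5 by 0.65, and TRIB3, a CHOP target that binds ATF4 and CHOP, by 0.35. MAFG (log2 fold change -0.43), JDP2 (-0.47), CEBPD (-0.89), NFE2L1 (-0.29, groups overlapping) and NFE2L2 (-0.34) fell too. JUN rose (1110 ± 61.6 CPM with GABA, 797 ± 87.5 CPM in controls, log2 fold change 0.48 ± 0.08), and so did TRIB2, at 0.46, though 1 of these rises was lost without GABA replicate 3. Of 12 genes described as CHOP targets 7 were tested, with 6 lower and 1, WARS1, not passing. TRIB3 and ATF5, among these falls, are also in the bZIP list, and WARS1 is also in the synthetase list below. TNFRSF10B, the death receptor DR5, fell (776 ± 19.8 CPM with GABA, 1117 ± 95.1 CPM in controls, log2 fold change -0.52 ± 0.07, adjusted p = 8.4e-05). BBC3, the BH3-only protein PUMA, fell by 0.59 and ERO1A, an ER oxidase, by 0.24.

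All 5 tested genes of amino acid and one-carbon synthesis, of 15, were lower. GOT1, the cytosolic aspartate aminotransferase, fell (316 ± 16.1 CPM with GABA, 474 ± 21.7 CPM in controls, log2 fold change -0.59 ± 0.07, adjusted p = 3.7e-05). CBS, which makes cystathionine, fell by 1.14, and PSPH and PHGDH, of serine synthesis, had log2 fold changes of -0.41 and -0.17. MTHFD2, of mitochondrial folate metabolism, fell by 0.20. ASNS and PSAT1, both classic ATF4 targets, are not listed.

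AARS1 differed in direction from most other synthetases. Of the 19 other cytosolic aminoacyl-tRNA synthetases 11 were tested, with 9 lower, 1 higher and 1 not passing (median log2 fold change -0.26). IARS1, for isoleucine, had 643, 601 and 635 CPM in the GABA libraries and 950, 903 and 1012 CPM in the controls, and fell by 0.61 ± 0.06 (adjusted p = 2.1e-05). YARS1, for tyrosine, fell by 0.47, and LARS1, for leucine, had a log2 fold change of -0.27. The count ratio of AARS1 to IARS1 was 2.64 ± 0.11 with GABA and 1.22 ± 0.22 in controls. Both genes were already without overlap in opposite directions, so the separation of this ratio adds nothing to them. The other riser was FARSA (183 ± 8.81 CPM with GABA, 126 ± 24.6 CPM in controls, log2 fold change 0.54 ± 0.12, adjusted p = 0.0019). FARSA encodes the alpha chain of phenylalanyl-tRNA synthetase, whose beta chain FARSB fell by 0.32, and the count ratio of alpha to beta chain was 0.643 ± 0.03 with GABA and 0.364 ± 0.11 in controls. Control replicate 3 was the lowest, at 0.240.

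Of 22 other amino acid transporters 10 were tested, with 8 lower, 1 higher and 1 not passing (median -0.41). SLC38A1 and SLC38A2, the glutamine importers SNAT1 and SNAT2, fell by 0.62 ± 0.06 and 0.51 ± 0.06. SLC38A1 averaged 1330 ± 29.2 CPM with GABA and 2048 ± 68.1 CPM in controls (adjusted p = 8.6e-06). SLC6A9, a glycine transporter, fell by 0.73, and SLC1A4 and SLC1A5, which carry neutral amino acids, by 0.40 and 0.33. The riser was SLC36A1, a lysosomal proton-coupled transporter, at 0.33 ± 0.09. Of 11 glutathione and thioredoxin genes 7 were tested, with 6 lower and 1, GSS, higher. CHAC1, already counted as a CHOP target, is among these falls. GSR, the glutathione reductase, fell (110 ± 2.74 CPM with GABA, 180 ± 11.0 CPM in controls, log2 fold change -0.71 ± 0.07), as did GCLC, the catalytic subunit of the rate-limiting ligase, by 0.40. TXNRD1, a thioredoxin reductase, fell by 0.28, and CHAC1, which degrades glutathione, was called lower with overlapping groups (-0.47 ± 0.14).

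The list of other ATF4 targets has 20 genes besides the 7, of which 14 were tested. Of these 12 were lower, 1 higher and 1, SESN2, not passing (median -0.34). CEBPG and NARS1, already counted in the bZIP and synthetase lists, are among these falls. SQSTM1, the autophagy receptor p62, had 2447, 2454 and 2517 CPM in the GABA libraries and 4161, 4475 and 4024 CPM in the controls, and fell by 0.77 ± 0.06 (adjusted p = 3.0e-06). ADM2, a peptide hormone, fell by 0.64, XPOT, the tRNA exporter, by 0.32, and MAP1LC3B, ATG12 and ATG5, of autophagosome formation, had log2 fold changes of -0.41, -0.35 and -0.34. GDF15, a stress cytokine that p53 also induces, was the riser (4241 ± 279 CPM with GABA, 3382 ± 322 CPM in controls, log2 fold change 0.33 ± 0.08, adjusted p = 0.0032). The lists of bZIP partners, CHOP targets, amino acid synthesis, synthetases, transporters and other ATF4 targets, 6 in all, were joined after their values had been seen. With each gene counted once, they hold 53 tested genes other than the 7. Of these 45 were lower, 5 higher and 3 not passing, with a median of -0.35. Lower genes made up 84.9% of them, against 51.2% of all tested genes. The count of lower genes was 47 without control replicate 3, 36, 41 and 38 without GABA replicate 1, 2 and 3, and 39 with DESeq2. Over all tested genes the lower calls in those fits were, in that order, 2399, 1937, 1947, 1966 and 2048, against 2549 in the main fit. In 49 of the 53 the groups did not overlap, against 92.5% of all tested genes, so nothing is read from that count.

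**Figure D4:**
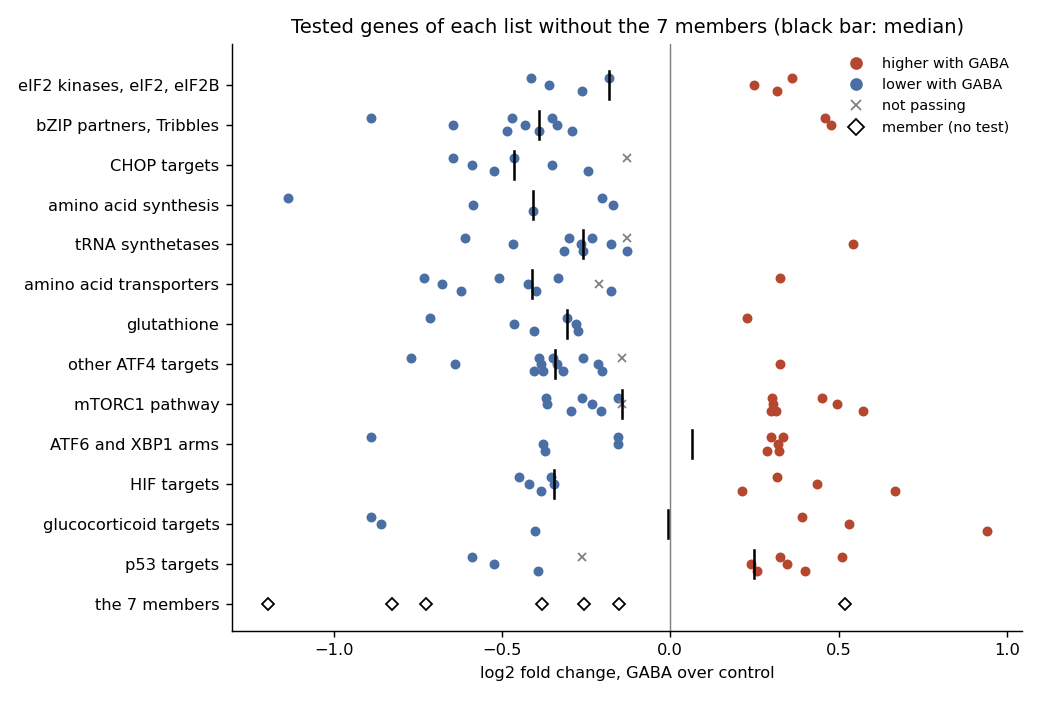
Log2 fold change, GABA over control (x axis), of each tested gene in 13 lists without the 7 members (red, higher; blue, lower; grey cross, not passing; black bar, median), with the 7 members as open diamonds in the bottom row. Points of the ATF4-side lists lie mostly left of 0, while the mTORC1, ATF6 and XBP1, glucocorticoid and p53 lists spread to both sides.

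REDD1 restrains mTORC1, and of 42 genes of the TSC complex, mTORC1 and its amino acid sensors 15 were tested. Of these 7 were higher, 7 lower and 1, again SESN2, not passing. This split was close to the 47.6% higher and 51.2% lower of all tested genes. MLST8, MTOR and RPTOR, subunits of mTORC1, rose by 0.57, 0.31 and 0.30. MLST8 averaged 145 ± 1.51 CPM with GABA and 97.8 ± 10.6 CPM in controls (adjusted p = 2.3e-04). NPRL2, NPRL3 and WDR24 of the GATOR complexes, which relay amino acid supply to mTORC1, rose by 0.30, 0.50 and 0.45. ULK1, the autophagy kinase that mTORC1 inhibits, fell by 0.37, and RRAGD, a Rag GTPase, by 0.37. The other falls were SAR1B, LAMTOR3, RRAGC, LAMTOR5 and FLCN, with log2 fold changes of -0.30 to -0.16. The number of falls was 3 with DESeq2, 2 without GABA replicate 2 or 3, 3 without GABA replicate 1 and 4 without control replicate 1, whereas 6 or 7 genes were higher in each of those fits. Lower calls over all tested genes also dropped, from 2549 in the main fit to 2048 with DESeq2. TSC1, TSC2 and RHEB are not listed.

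Of 22 genes of the ATF6 and XBP1 arms of the unfolded protein response 10 were tested. The split of 5 higher and 5 lower was again close to that of all tested genes. HSPA5, the ER chaperone BiP, had 4439, 4577 and 4766 CPM in the GABA libraries and 8060, 8239 and 9244 CPM in the controls, and fell by 0.89 ± 0.07 (adjusted p = 2.5e-06). HERPUD1, of ER-associated degradation, and XBP1 fell by 0.38 and 0.37. HERPUD1 is also in the list of other ATF4 targets. PDIA4, CALR, MANF and DNAJB11, which fold or protect proteins in the ER, rose by 0.30 to 0.33. SEL1L and CANX, of ER degradation and folding, were called lower at -0.16 each, and the count of falls was 3 with DESeq2, with the replicate block, without any single GABA replicate and without control replicate 1.

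Other inducers of DDIT4 and VLDLR were set beside them. Of 21 hypoxia targets 9 were tested, with 4 higher and 5 lower, among them VEGFA (-0.38), BNIP3L (-0.42), KDM3A (-0.45) and ADM (0.32). VEGFA is also in the list of other ATF4 targets. Of 10 glucocorticoid receptor targets 6 were tested, with 3 higher and 3 lower. CEBPD, already counted in the bZIP list, is among the 3 lower. SGK1 rose (1557 ± 38.9 CPM with GABA, 812 ± 19.8 CPM in controls, log2 fold change 0.94 ± 0.06), and so did DUSP1 (0.53) and PER1 (0.39), while TSC22D3, or GILZ, fell by 0.40. Of 18 p53 targets 10 were tested, with 6 higher, 3 lower and 1 not passing. TNFRSF10B and BBC3, already counted as CHOP targets, are among these falls, and GDF15, already counted as an ATF4 target, is among the rises. FDXR (0.51) and MDM2 (0.40) rose, TP53INP1 fell by 0.39, and without control replicate 3 the list had 4 higher and 4 lower. RELN, a VLDLR ligand, rose at 2.00 ± 0.29 CPM with GABA and 0.587 ± 0.52 CPM in controls. LRP8, the other receptor for RELN, fell by 0.30 with overlapping groups, and its call was lost with DESeq2 and without GABA replicate 1 or 2 or control replicate 1 or 2.

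ATF4 dimers bind a composite C/EBP-ATF element, and promoter windows were read for its core, TGATGNAA, on both strands. Windows run from 250 bases before to 50 after the RefSeq start (GRCh38.p14, the first listed start of each gene). Of the 7 members 6 have a window, and the core was found in 1, AARS1. It is present in 3.67% of all 27305 windows and in 2.06% of the 3735 windows of tested genes. In the 6 joined lists 9 of 46 tested genes with a window hold it, or 19.6%, but such lists draw on published ATF4 targets and are not independent of the element. The matches are shown with their flanks because AARS1 holds the core together with genes of the opposite direction. The sequences are the gene's own strand from 5′ to 3′, with the match in capitals, and TTGCATCA is the reverse complement of TGATGCAA.
AARS1: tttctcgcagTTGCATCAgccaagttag
IARS1: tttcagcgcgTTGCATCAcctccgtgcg
TARS1: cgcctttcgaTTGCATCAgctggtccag
NARS1: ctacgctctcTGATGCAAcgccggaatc
GOT1: attgcattggTTGCATCAttctcggcag
CHAC1: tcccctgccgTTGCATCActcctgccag
HERPUD1: acgcggcgggTTGCATCAgcccgtgccc
ATF3: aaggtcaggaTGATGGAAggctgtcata
SLC38A1: cagacccgaaTGATGAAAagggatcagc
SLC3A2: gcaggactccTTACATCAgctcc

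The AARS1 match lies at chr16:70289676-70289703 with its flanks, 187 bases before the start, and inside an exon of DDX19B, a gene on the opposite strand. AARS1 was higher with GABA, at 1652 ± 31.0 CPM and 1153 ± 141 CPM in controls. The 9 list genes with the core were all called lower, with log2 fold changes of -0.62 for SLC38A1 to -0.13 for TARS1. The call of TARS1 (-0.13 ± 0.06) lay at the threshold, as its adjusted p rounds to 0.05. Of the genes of the same lists without the core, 29 were lower and 5 higher. Over all tested genes with a window, 33 were higher and 43 lower among the 77 that hold the core, and 1772 were higher and 1838 lower among the rest. The difference between these splits was not tested. With their flanks the other matches lie at chr9:92293693-92293720 (IARS1, minus strand), chr5:33440957-33440984 (TARS1, plus), chr18:57621805-57621832 (NARS1, minus), chr10:99430805-99430832 (GOT1, minus), chr15:40953252-40953279 (CHAC1, plus), chr16:56931956-56931983 (HERPUD1, plus), chr1:212565206-212565233 (ATF3, plus), chr12:46266503-46266530 (SLC38A1, minus) and chr11:62881726-62881748 (SLC3A2, plus). Those of IARS1, TARS1, NARS1, GOT1, CHAC1 and SLC3A2 fall in annotated exons of the gene itself. The windows of ATF4, DDIT3, DDIT4, VLDLR and SLC7A5 do not hold these letters, which says nothing of sites outside them.

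**Figure D5:**
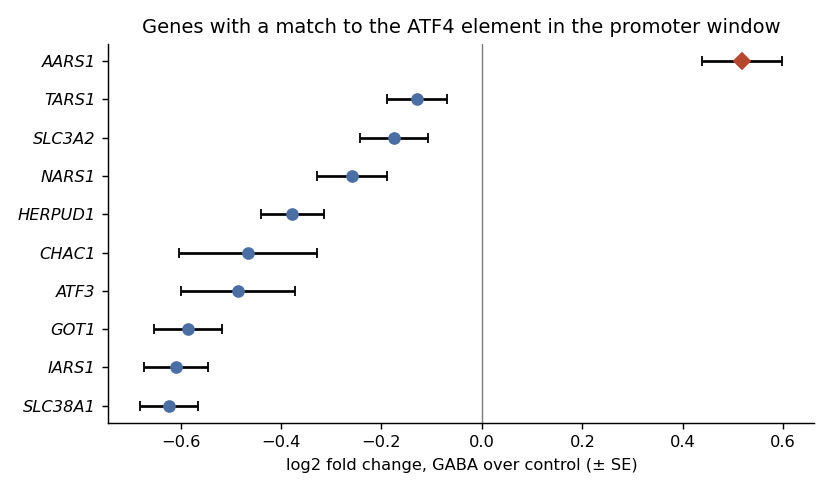
Log2 fold change, GABA over control, with its SE (x axis) for AARS1 (diamond) and the 9 genes of the 6 joined lists (circles) whose promoter window matches the ATF4 element core, out of 77 tested genes with a match. AARS1 lies at 0.52 and the 9 list genes lie between -0.62 and -0.13.

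The windows of the 3 members AARS1, DDIT3 and DDIT4 share another element, a pair of CCAAT boxes in either orientation, the site of the general factor NF-Y. Stretches from 120 to 41 bases before the start are shown because these genes include the riser and the lowest pair, and capitals mark CCAAT or its reverse complement ATTGG.
AARS1: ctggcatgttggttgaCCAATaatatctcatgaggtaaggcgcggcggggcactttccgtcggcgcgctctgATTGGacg
DDIT3: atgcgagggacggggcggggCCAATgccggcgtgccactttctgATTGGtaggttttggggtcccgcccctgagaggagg
DDIT4: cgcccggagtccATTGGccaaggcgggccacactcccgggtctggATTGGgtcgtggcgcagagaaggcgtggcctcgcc
The stretches are chr16:70289547-70289626 (minus strand), chr12:57520555-57520634 (minus) and chr10:72273804-72273883 (plus). At least 1 CCAAT box occurs in 35.7% of all windows and in 36.4% of those of tested genes, and 2 or more occur in 11.3% of all and 14.4% of those of tested genes. Of the tested genes with at least 1 box 721 were higher and 622 lower (median log2 fold change 0.22), and of those without a box 1084 were higher and 1259 lower (median -0.19). Those with 2 or more boxes had 314 higher and 212 lower (median 0.27). In the 6 joined lists 21 of 46 tested genes with a window hold a box, with 3 higher, 16 lower and 2 not passing. The list genes without a box had 2 higher and 22 lower. Some list genes, IARS1 and GOT1 among them, also hold 2 or more boxes, so the pair is not particular to the 3 members. These differences were not tested, and of the 3 members with a pair AARS1 was higher and DDIT3 and DDIT4 were lower.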

How the data were processed

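The deposited files hold raw read counts for each Ensembl gene in each library. The submitters' processing notes name CASAVA 1.8, Bowtie 0.12.2 and the hg38 build. The counting program, the strand setting and the choice of the 5187 listed genes are not given in the sources used here. The order of genes in the files followed the p-value of this comparison (Spearman correlation 0.93 over the tested genes). Symbols came from a gene name table, with positions and exons from GENCODE release 29 and promoter sequences from RefSeq.

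Counts were tested with edgeR 4.0.16 in R 4.3.3 (filterByExpr with minimum count 10 and minimum total 15, TMM, robust quasi-likelihood F test, no covariate, Benjamini-Hochberg adjustment over 4981 genes, threshold 0.05). CPM are TMM-scaled over the tested genes, whose totals (7701802 to 8391818) are not whole library depths. Fold changes are GABA over control with the SE of the fit. Alternatives were other scalings, filters, DESeq2 1.42.0, limma-voom 3.58.1, the replicate block and each library left out. Tables and figures used Python 3.11.15.

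The 7 members and the 17 gene lists were chosen with earlier results of these data known. By rule the text names the members, up to 4 genes of smallest p in each list, all tested genes of the eIF2, bZIP and neighbour lists, and the 3 genes nearest in pattern to DDIT3, DDIT4 and AARS1. Other named genes were chosen after their values were seen. RPS19BP1, near ATF4, also falls under this rule and rose by 0.35. Promoter motifs were chosen after the values were seen. 1 gene that the rule names is not reported here.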

Additional observations from a re-analysis of the deposited data

How the results depend on the processing

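The 7 members kept the sign of their log2 fold change in all 105 values under the alternatives, each within 1 SD of the reported value, which the choice of these genes by this contrast largely fixes. With a library left out, DDIT4 ran from -1.35 to -1.07, DDIT3 from -0.86 to -0.79, VLDLR from -0.82 to -0.64, AARS1 from 0.43 to 0.60 and ATF4 from -0.21 to -0.13. The scaling of DESeq2 brought ATF4 to -0.11. The count of changed genes was 4918, or 3216 at an adjusted p of 0.01, and 4025 to 4735 with a library left out. Lower calls over all tested genes were 2549, but 2048 with DESeq2, 2050 with its size factors in edgeR and 2383 with library size only. They were 2452 with the replicate block and 1937 to 2399 with a library left out. The list counts below are read beside these. Of the mTORC1 list 7 genes were lower, but 3 with DESeq2 or its size factors in edgeR, 4 with library size only, and 2 to 6 with a library left out. Of the ATF6 and XBP1 list 5 were lower, but 3 with DESeq2, its size factors, library size only or the replicate block, and 3 to 5 with a library left out. Of the list around VLDLR 1 gene, LRP8, was lower, but 0 with DESeq2, its size factors or library size only, and 0 to 1 with a library left out. Of the bZIP list 2 were higher, and 1 to 2 with a library left out. The cause was not tested. The replicate block gave 4823 genes. Same-numbered libraries did not deviate together (correlations 0.0003, -0.089 and -0.036), and the labels do not say that a number pairs cultures.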
